A study of Mus musculus with 26 samples.

Results

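The genes examined here encode 7 secreted growth factors that mesenchyme can send to neighbouring epithelium and 2 receptors for them: Hgf with its receptor Met, Gdnf with its coreceptor Gfra1, Kitl, Nrg1, Ptn, Mdk and Vegfa. They were chosen by name, as the rows of the count tables that carry these symbols, and make up 9 of 41442 gene rows. The choice was made with earlier results of these data known. All 9 were present and passed the filter on low counts in both tables. The study sorted Tomato-labelled mesenchymal cells of mouse fetuses and sequenced their polyadenylated RNA. Each group held 3 RNA libraries.

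In the 4 fetal groups, the cells were Gli1+ cells of the mesonephros of females (XX) and males (XY), collected at E14.5 or at E16.5 (E for embryonic day). The mesonephros holds the Wolffian and Müllerian ducts, the forerunners of the male and the female tract. The label came from a Gli1-CreER; Rosa-Tomato genotype, in which tamoxifen switches the reporter on in cells that use the Gli1 promoter at that time and in their descendants. In the 2 uterine groups the cells came from female uteri at E19.5, labelled neonatal, and were Gli1+ cells or Amhr2+ cells, the latter from Amhr2-Cre; Rosa-Tomato animals, in which Cre follows the gene of the anti-Müllerian hormone receptor. Dams were given 1 mg of tamoxifen at E12.5 and again at E13.5, and the protocol names both genotypes. The tissue was dissociated with TrypLE before the sort. No group without tamoxifen or without Cre was compared. The design compared the sexes at each age, the ages in each sex, and both sorted populations of the uterus. The uterine libraries were made with another kit than the fetal ones, and the 2 tables were never tested against each other.

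Fibroblast-like cells around a growing duct instruct it through such factors. HGF binds the tyrosine kinase MET and makes epithelial cells scatter and branch, and GDNF binds GFRA1, which then engages the kinase RET, the signal that draws the ureteric bud out of the nephric duct. KIT ligand and neuregulin act on the KIT and ERBB kinases, pleiotrophin and midkine are related heparin-binding proteins that bind PTPRZ1, ALK and syndecans, and VEGFA acts mainly on blood vessels through KDR and FLT1.

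The fetal libraries held 23382983 to 64602477 counts and the uterine ones 28709191 to 37541045, so that 3 counts, taken as the limit of detection, stood for at most 0.126 CPM, the count scaled to library size that is used throughout. These limits cover counting error only. The 10 mesenchyme markers summed to between 26667 and 65099 CPM in every library, against 25.0 to 76.0 CPM for 10 epithelial markers, 6.71 to 82.0 CPM for 8 endothelial markers (Emcn the highest in every group) and 13.7 to 38.5 CPM for 9 neural and glial markers, among which Foxd3 was at 0 in all 4 fetal groups. Smooth muscle markers differed between groups, with sums of 465 to 567 CPM in E16.5 females and 1716 to 2893 CPM in E16.5 males. Their part in the differences given below was not tested. In sorted cells measured in bulk, fewer cells that make a factor and less of its RNA per cell cannot be told apart. The labels do not say that libraries of a group came from separate litters, so p-values measure the spread between these libraries, which may be partly technical.

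Levels of different genes were compared per kilobase of annotated exon. In the fetal cells Mdk stood highest, between group means of 325.9 and 406 CPM per kb, followed by Ptn (111 to 181) and Vegfa (30.5 to 72.0). Kitl lay between 3.48 and 6.99 CPM per kb, Nrg1 between 1.46 and 2.67, and Hgf between 1.14 and 2.14. Gdnf lay between 0.624 and 3.30, Met between 0.358 and 1.59, and Gfra1 between 0.147 and 0.710. The order of these 6 lower genes differed between groups: Gdnf stood above Hgf and Nrg1 in E16.5 males (3.30 against 1.14 and 1.96). In E14.5 females Met and Nrg1 were alike within their spread (1.59 ± 0.136 and 1.46 ± 0.257, SD, n = 3). In the uterus Mdk (330.1 and 337 CPM per kb), Vegfa (61.7 and 78.5) and Ptn (56.8 and 91.8) were again the 3 most abundant, and Gfra1 (0.257 and 0.797) and Met (0.448 and 0.582) the least. Gfra1 rested on 32 to 168 counts per fetal library and Gdnf on 43 to 828.

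**Figure D1:**
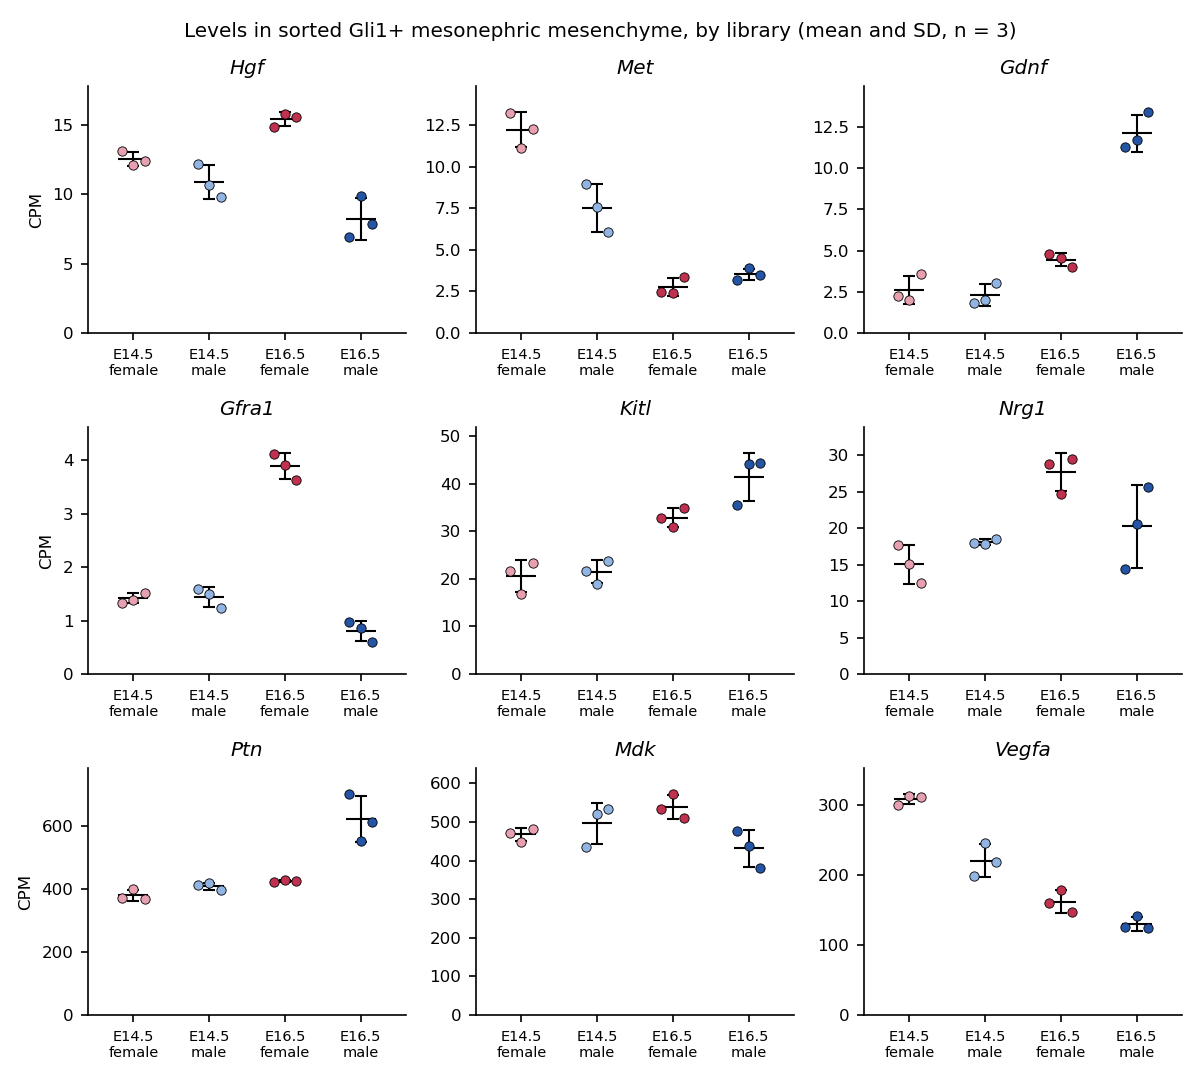
CPM of the 9 genes in each of the 12 fetal libraries (points), with the mean and SD of each group of 3 (bars), each gene on its own axis starting at 0. Gdnf stands apart in E16.5 males (11.3 to 13.4 CPM), Gfra1 in E16.5 females (3.64 to 4.11 CPM), and Met and Vegfa are highest in E14.5 females.

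At E14.5 the sexes differed in 2 of the 9 genes, Met and Vegfa, both higher in females; of all tested genes, 6.28% differed at an adjusted p under 0.05 by edgeR's quasi-likelihood test, 2.59% higher in females and 3.69% higher in males. The libraries of the sexes did not overlap in 3 of the 9 genes, against 27.2% of all genes. At E16.5, 7 of the 9 differed, against 27.3% of all genes. Gfra1, Hgf, Mdk and Vegfa were higher in females (13.2% of all genes) and Gdnf, Ptn and Kitl higher in males (14.1%), and 7 did not overlap (38.3%). The interaction of sex and age passed the threshold in 5 genes, against 10.02% of all genes: it was towards females with age in Gfra1 and Hgf (4.66%) and towards males in Gdnf, Met and Ptn (5.36%). The median log2 fold change (female over male) of the 9 was -0.01 at E14.5 and 0.31 at E16.5, beside -0.01 and 0.01 over all genes, and the median interaction was -0.17, beside 0.02. Because the 9 genes and the lists were chosen with earlier results known, these shares and those given below are descriptions.

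With age, 6 of the 9 genes changed in females and 7 in males, against 39.6% and 23.3% of all genes. In females 4 rose and 2 fell (20.98% and 18.6% of all genes), and in males 3 rose and 4 fell (13.1% and 10.2%). The ages did not overlap in 9 of 9 genes in females (56.6% of all genes) and in 6 in males (34.9%). Gdnf and Kitl rose and Met and Vegfa fell in both sexes. Gfra1 rose in females and fell in males. Nrg1 was called in females alone and Ptn and Hgf in males alone, and of these the difference between the sexes was itself called for Ptn and Hgf but not for Nrg1. The median log2 fold change of the 9 was 0.30 in females and -0.20 in males, beside 0.00 and -0.01 over all genes. All of these fetal contrasts share libraries, so they are not independent of each other. With library size as the only scaling, genes called in males split into 1847 higher and 2641 lower at E16.5, against 2340 and 1828 with the scaling used here, and no call on the 9 genes in that contrast changed.

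**Figure D2:**
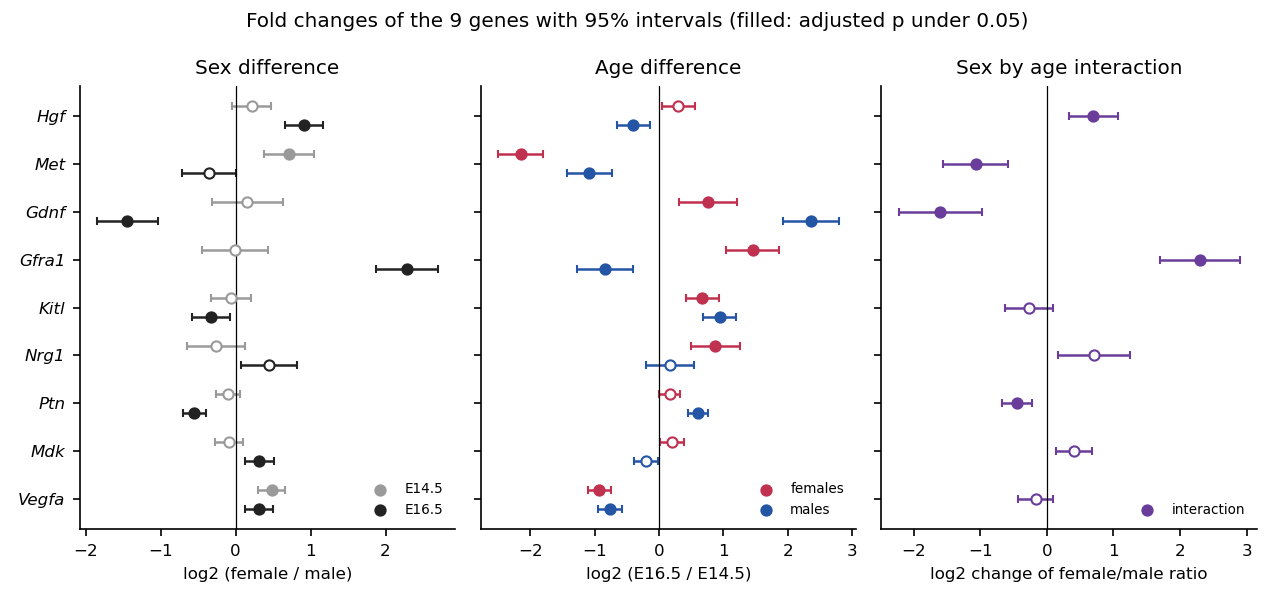
Log2 fold changes of the 9 genes between sexes (left), between ages (middle) and their interaction (right), as points with 95% intervals; filled points passed an adjusted p of 0.05 by edgeR. The E14.5 sex differences lie within 0.71 of 0, whereas at E16.5 Gdnf lies at -1.44 and Gfra1 at 2.29.

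Gdnf, on chromosome 15 from 7810846 to 7837575, and Gfra1, on chromosome 19 from 58235604 to 58455398, moved in opposite directions between the sexes. At E16.5 the ligand gene was higher in males and the coreceptor gene higher in females. Gdnf measured 2.238, 2.03 and 3.58 CPM in the E14.5 female libraries, against 1.81, 2.02 and 3.05 CPM in the males. At E16.5 the values were 4.80, 4.56 and 4.02 CPM in females and 11.3, 11.7 and 13.4 CPM in males. The sexes overlapped at E14.5, and at E16.5 every male library lay above every female one. The log2 fold change (female over male) at E16.5 was -1.44 (SE 0.191, edgeR adjusted p 3.41e-05), a level 2.72-fold higher in males. At E14.5 it was 0.16, with a 95% interval from -0.32 to 0.63 (adjusted p 0.778), and the interaction was -1.60 (SE 0.293, adjusted p 0.00201). Gdnf rose with age by 2.37 on the log2 scale in males (SE 0.203, adjusted p 4.48e-07) and by 0.77 in females (SE 0.213, adjusted p 0.0101). The female call was lost without E14.5 female replicate 1 (0.66, adjusted p 0.0550) or replicate 2 (0.62, adjusted p 0.0551).

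Gfra1 measured 1.34, 1.39 and 1.52 CPM in E14.5 females, against 1.60, 1.502 and 1.23 CPM in males of that age. The E16.5 values were 4.11, 3.92 and 3.64 CPM in females and 0.969, 0.855 and 0.598 CPM in males. Libraries of the sexes overlapped at E14.5 and were far apart at E16.5, where the means were 3.89 ± 0.239 and 0.807 ± 0.190 CPM (SD, n = 3). The female level was 4.89-fold higher at E16.5 (log2 fold change 2.29, SE 0.194, edgeR adjusted p 3.04e-07). At E14.5 the log2 fold change was -0.01, with a 95% interval from -0.45 to 0.43 (adjusted p 0.991). The interaction was 2.30 (SE 0.282, adjusted p 6.76e-05), the largest in size among the 9 genes. Between the ages Gfra1 rose by 1.46 in females (SE 0.192, adjusted p 2.64e-05) and fell by 0.84 in males (SE 0.207, adjusted p 0.00756). The male call was lost in a fit of only the 6 male libraries (adjusted p 0.0532). Gfra1 overlaps 1 other gene of the table, which had no count in any fetal library.

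The ATAC-seq list of accessible regions, a single list for all 8 ATAC samples with no values per sample, placed 3 regions in Gdnf and 8 in Gfra1. Shown here are stretches of the RefSeq assembly GRCm38.p6 (mm10) outside exons, in or next to these genes, which had the largest sex differences. For Gdnf these are both intronic regions, 2055 and 14769 bp from its start site in the GENCODE vM21 annotation. RefSeq also has a Gdnf upstream window at chr15:7813477-7813726, so the first of these regions lies near another start there. For Gfra1 they are 1 of its intronic regions, 34429 bp from the nearest GENCODE start, and part of the region at its first start site. That part, chr19:58455947-58456067, lies outside exons and upstream of the gene, which starts at 58455909 in GENCODE. Each stretch is written 5′ to 3′ on the strand of its gene, plus for Gdnf and minus for Gfra1. Capitals mark ACGTG, the core of the hypoxia response element.
Gdnf chr15:7812901-7813039: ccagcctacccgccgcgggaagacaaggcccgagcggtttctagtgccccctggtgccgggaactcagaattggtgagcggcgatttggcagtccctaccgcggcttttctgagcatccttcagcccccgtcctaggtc
Gdnf chr15:7825615-7825809: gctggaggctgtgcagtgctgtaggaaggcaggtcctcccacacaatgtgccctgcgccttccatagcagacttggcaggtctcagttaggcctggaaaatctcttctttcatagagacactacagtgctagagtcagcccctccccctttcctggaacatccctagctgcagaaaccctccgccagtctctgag
Gfra1 chr19:58419759-58420037: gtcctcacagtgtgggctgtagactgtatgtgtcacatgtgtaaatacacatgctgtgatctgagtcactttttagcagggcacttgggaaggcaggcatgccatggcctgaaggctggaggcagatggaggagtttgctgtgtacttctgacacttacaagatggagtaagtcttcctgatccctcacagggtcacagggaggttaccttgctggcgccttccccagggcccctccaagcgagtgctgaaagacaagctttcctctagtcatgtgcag
Gfra1 chr19:58455947-58456067: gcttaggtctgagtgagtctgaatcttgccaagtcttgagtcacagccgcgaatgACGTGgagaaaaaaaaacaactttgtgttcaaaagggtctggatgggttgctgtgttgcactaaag
The search covered both strands for GACCACCCA, a GLI site, for AGAACA, a half-site of steroid receptors, for ACGTG and for GGGCGG, a GC box; the letters of these motifs do not overlap each other. Of the 4 stretches shown, only the one at the Gfra1 start held one of them, a single ACGTG, which 7.48% of windows of the same length centred on the listed regions also held. An intronic stretch of Gfra1 that is not shown, chr19:58413165-58413464, also held a single ACGTG, as did 17.2% of windows of its length. For the lengths shown, the GLI letters were in 0.208% to 0.441% of windows and the steroid half-site in 10.8% to 22.7%. These matches are descriptions of letters.

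Other genes of the GDNF route were examined as a list of 8 receptors and ligands, all tested in the fetal table. At E16.5, 3 were higher in females and 1 in males, against 13.2% and 14.1% of all genes. At E14.5, 2 were higher in males, against 3.69% of all genes. The list medians were 0.17 at E16.5 and 0.07 at E14.5. The largest sex difference was in Artn, the gene of artemin, a GDNF-family ligand. Artn measured 2.23, 2.07 and 2.02 CPM in E16.5 females and 24.1, 24.1 and 22.7 CPM in E16.5 males. The E16.5 male libraries lay far above the other 9 fetal libraries, which reached at most 6.03 CPM. The log2 fold change was -3.49 at E16.5 (SE 0.154, edgeR adjusted p 2.62e-10) and -0.79 at E14.5 (SE 0.158, adjusted p 0.0066), with an interaction of -2.70 (adjusted p 1.17e-06). Artn rose with age in males by 2.21 (adjusted p 2.34e-08); its change of -0.49 in females (adjusted p 0.0319) was lost with a replicate block (0.0512) and without E14.5 female replicates 1 or 3 or any 1 of the E16.5 female libraries (0.0520 to 0.124).

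Gfra3, the gene of the coreceptor that artemin prefers, was higher in males at E14.5 (8.22 ± 1.18 CPM in females and 18.5 ± 0.728 CPM in males, SD, n = 3) and higher in females at E16.5 (17.0 ± 1.72 and 11.9 ± 1.44 CPM). Its log2 fold changes were -1.17 (edgeR adjusted p 2.63e-05) and 0.53 (adjusted p 0.00301), and the interaction was 1.69 (adjusted p 8.89e-06). Gfra4, a coreceptor of persephin, was the higher in females at E16.5, 8.53 ± 0.384 against 5.11 ± 0.664 CPM (log2 fold change 0.74, adjusted p 0.000274), with an interaction of 0.77 (adjusted p 0.0094). Ncam1, a cell adhesion molecule that also binds GDNF, had a log2 fold change of 0.25 at E16.5 (adjusted p 0.0269); it was lost without E16.5 female replicates 1 or 2 or male replicates 1 or 3, with adjusted p of 0.0683 to 0.111. With age Gfra3 rose in females by 1.05 (adjusted p 7.09e-06) and fell in males by 0.64 (adjusted p 0.000718), and Gfra2, the coreceptor of neurturin, fell by 0.56 in females and 0.37 in males, as did Ncam1, by 0.32 and 0.40 (adjusted p 0.00579 and 0.00162). Ret, the kinase itself, had 4 to 15 counts per fetal library, near the limit of detection, from 0.146 ± 0.0559 CPM in E16.5 males to 0.377 ± 0.0865 CPM in E14.5 females, and passed the threshold in no contrast.

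**Figure D3:**
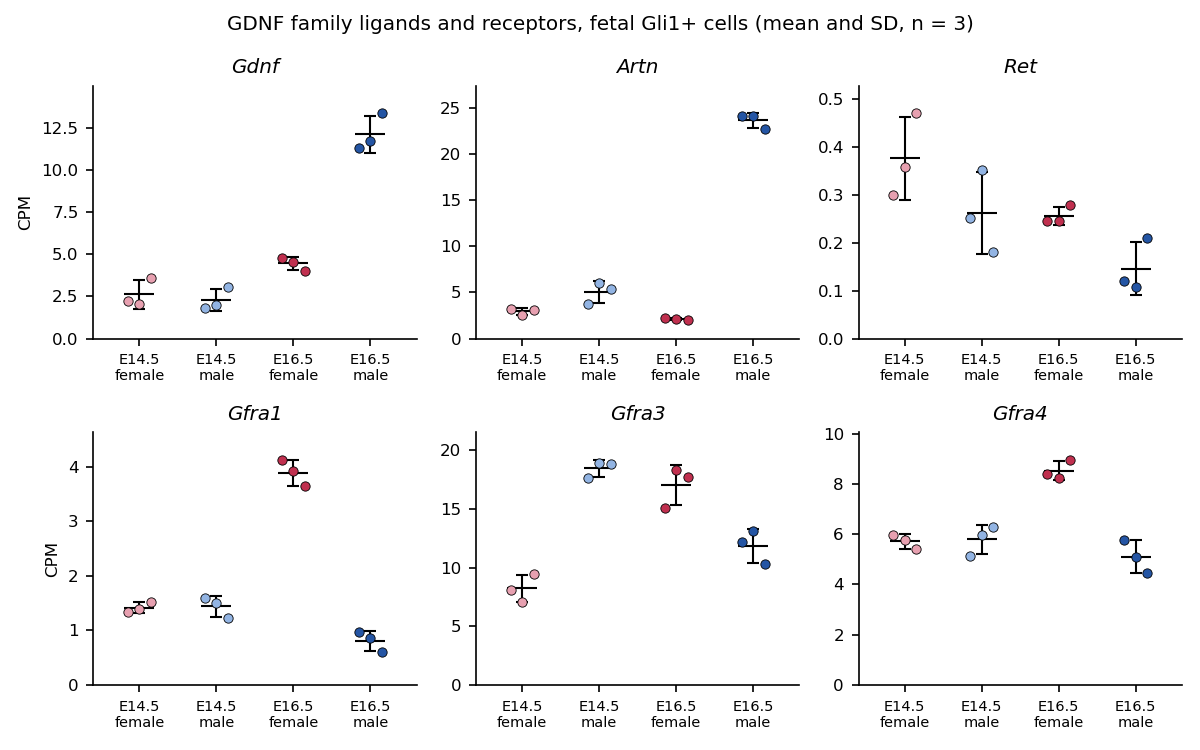
CPM of 2 ligands, 3 coreceptors and the kinase Ret of the GDNF family in each fetal library (points) with the group mean and SD (bars, n = 3), each gene on its own axis starting at 0. Gdnf and Artn peak in E16.5 males, Gfra1 and Gfra4 in E16.5 females, and Ret stays under 0.5 CPM in all 12 libraries.

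Hgf, on chromosome 5 from 16553550 to 16620152, was highest in E16.5 females and lowest in E16.5 males. It measured 13.1, 12.1 and 12.4 CPM in E14.5 females, against 12.2, 10.7 and 9.78 CPM in males of that age. At E16.5 the values were 14.9, 15.8 and 15.6 CPM in females and 6.90, 9.91 and 7.84 CPM in males. In the order of levels, E16.5 females lay above all other libraries, while E14.5 females overlapped E14.5 males and those overlapped E16.5 males. The E16.5 difference was 1.88-fold (log2 fold change 0.91, SE 0.121, edgeR adjusted p 3.56e-05), the E14.5 difference was 0.22 with a 95% interval from -0.05 to 0.48 (adjusted p 0.383), and the interaction was 0.70 (SE 0.172, adjusted p 0.0160). Hgf fell with age in males by 0.40 (SE 0.123, adjusted p 0.0269). That call was lost with a replicate block (adjusted p 0.0555), with the 6 male libraries alone (0.107) and without E14.5 male replicates 1 (0.102) or 2 (0.0553) or E16.5 male replicates 1 (0.0985) or 3 (0.0914). In females the change was 0.30 with a 95% interval from 0.04 to 0.55 (adjusted p 0.0642), and it passed the threshold with the 6 female libraries alone (0.00867), without the low-count filter (0.0460) and without E16.5 male replicates 1 (0.0339) or 2 (0.0303). Hgf overlaps 2 other genes of the table, which held at most 99 counts in any fetal library.

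Met, on chromosome 6 from 17463800 to 17573980, fell with age. It measured 13.2, 11.1 and 12.3 CPM in E14.5 females, against 8.96, 7.56 and 6.08 CPM in males of that age. The E16.5 values were 2.45, 2.41 and 3.39 CPM in females and 3.20, 3.90 and 3.47 CPM in males. Every E14.5 library lay above every E16.5 library, the sexes were apart at E14.5 and overlapped at E16.5. The fall was 4.45-fold in females (log2 fold change -2.15, SE 0.167, edgeR adjusted p 1.02e-07) and 2.12-fold in males (-1.08, SE 0.162, adjusted p 0.000133), and these changes differed, with an interaction of -1.07 (SE 0.231, adjusted p 0.00651). The sex difference at E14.5 was 0.71 (SE 0.156, adjusted p 0.0115) and was lost without E14.5 female replicate 1 (adjusted p 0.0676) or E14.5 male replicate 3 (0.0795). At E16.5 it was -0.36 with a 95% interval from -0.72 to 0.01 (adjusted p 0.140), and it passed the threshold without E16.5 female replicate 3 (-0.53, adjusted p 0.0402). Met is usually a gene of epithelial cells. The summed epithelial markers had another order, with 32.9 to 37.5 CPM in E14.5 females, where Met was highest, 46.8 to 55.8 CPM in E14.5 males, 25.0 to 33.5 CPM in E16.5 females and 34.6 to 41.4 CPM in E16.5 males, and their part in the Met levels was not tested.

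Of 9 listed genes around HGF (its activating proteases, their inhibitors, an adaptor of MET and the related receptor Mst1r with its ligand), 8 were tested. At E16.5, 1 was higher in each sex, against 13.2% of all genes higher in females and 14.1% in males. Plau, the gene of urokinase, which can cut HGF into its active form, measured 8.78 ± 0.903 CPM in E16.5 females and 5.11 ± 1.42 CPM in males (SD, n = 3; log2 fold change 0.79, edgeR adjusted p 0.00221). Spint2, which encodes an inhibitor of such proteases, had a log2 fold change of -0.47 (adjusted p 0.0385), lost with only the 6 compared libraries in the fit (0.0582) and without E14.5 female replicates 2 or 3, E16.5 female replicates 1 or 3 or E16.5 male replicates 1 or 2 (adjusted p 0.0504 to 0.155). Mst1r rose with age by 0.55 in females (adjusted p 9.99e-05) and 0.57 in males (adjusted p 0.000109). Gab1, the adaptor, had a change of -0.24 in females (adjusted p 0.0137), lost without E16.5 female replicate 1 (0.0527).

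Kitl, on chromosome 10 from 100015630 to 100100416, rose with age in both sexes. It measured 21.6, 16.8 and 23.4 CPM in E14.5 females, 21.7, 18.9 and 23.8 CPM among E14.5 males, 32.7, 30.9 and 34.9 CPM in E16.5 females and 35.5, 44.1 and 44.3 CPM in E16.5 males. All E16.5 libraries lay above all E14.5 libraries. The rise was 1.59-fold in females (log2 fold change 0.67, SE 0.122, edgeR adjusted p 0.000534) and 1.92-fold in males (0.94, SE 0.120, adjusted p 3.21e-05), with an interaction of -0.27 and a 95% interval from -0.63 to 0.09 (adjusted p 0.379). The sex difference at E16.5 was -0.33 (SE 0.118, adjusted p 0.0493), and 8 of 12 fits that left out 1 library lost it, with adjusted p of 0.0502 to 0.152: those without E14.5 female replicate 1, E14.5 male replicates 1 or 3, any E16.5 female replicate, or E16.5 male replicates 2 or 3. At E14.5 the difference was -0.06, with a 95% interval from -0.32 to 0.20. Kit, the receptor, measured 5.06 ± 0.863 and 5.44 ± 0.480 CPM in E14.5 females and males and 6.10 ± 0.818 and 6.98 ± 0.612 CPM at E16.5 (SD, n = 3), and passed the threshold in no contrast.

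Nrg1, on chromosome 8 from 31814551 to 32884029, rose with age in females. It measured 17.7, 15.1 and 12.4 CPM in E14.5 females, 17.9, 17.8 and 18.5 CPM among E14.5 males, 28.8, 24.7 and 29.5 CPM in E16.5 females and 14.4, 20.6 and 25.7 CPM in E16.5 males. The E16.5 males spread most, and their highest library, replicate 3, reached into the female range. The change in females was 0.88 on the log2 scale (SE 0.178, edgeR adjusted p 0.00188) and in males 0.17, with a 95% interval from -0.21 to 0.55 (adjusted p 0.536). The interaction was 0.71 with a 95% interval from 0.17 to 1.25 (adjusted p 0.0982), and the sex difference at E16.5 was 0.45 with an interval from 0.07 to 0.82 (adjusted p 0.0730). At E14.5 the sexes just failed to overlap, with a difference of -0.26 and an interval from -0.65 to 0.13. Without E16.5 male replicate 3 the interaction and the E16.5 difference passed the threshold, at 0.91 (adjusted p 0.0121) and 0.65 (adjusted p 0.00686), and with DESeq2 they did too (adjusted p 0.0347 and 0.0391). The E16.5 difference also passed with library size as the only scaling (0.0428). Nrg1 overlaps 2 other genes, which held at most 116 counts in a fetal library.

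Among 7 listed ERBB receptors and other neuregulins, Egfr was higher in males at E16.5, at 90.7 ± 9.38 against 55.8 ± 0.934 CPM (SD, n = 3; log2 fold change -0.70, edgeR adjusted p 2.4e-06). Its E14.5 difference of -0.31 (adjusted p 0.0186) was lost without any 1 of the E14.5 female libraries or without E14.5 male replicate 3, with adjusted p of 0.0585 to 0.109. Its interaction of -0.39 (adjusted p 0.0224) was lost without E14.5 female replicates 1 or 2, E14.5 male replicate 2 or E16.5 male replicate 2 (adjusted p 0.0523 to 0.0675). Egfr rose with age by 0.36 in females (adjusted p 0.00133) and 0.75 in males (adjusted p 1.59e-06). Erbb2, which pairs with the neuregulin receptors, was abundant in every fetal group (108.7 to 126 CPM), and its E16.5 difference of 0.21 (adjusted p 0.0304) was lost with library size as the only scaling (0.0622), without the low-count filter (0.0516), with only the 6 compared libraries in the fit (0.0876) and without any 1 of the E16.5 female libraries or E16.5 male replicates 2 or 3 (0.0551 to 0.173). Erbb3 and Erbb4, whose proteins bind neuregulin directly, stood at 0.441 to 0.629 and 0.123 to 0.327 CPM; the change of Erbb4 with age in females, -1.37 (adjusted p 0.0204), was lost with DESeq2 (0.0879), without the low-count filter (0.0677) and without E14.5 or E16.5 female replicates 1 or 2 (0.0544 to 0.0866). Nrg2 rose by 1.04 in females (adjusted p 0.000246); in males its change of 0.49 (adjusted p 0.0458) was lost with library size as the only scaling (0.0695), with only the 6 compared libraries in the fit (0.0833) and without E14.5 female replicates 2 or 3, E14.5 male replicates 1 or 3, E16.5 female replicate 3 or E16.5 male replicates 2 or 3 (0.0503 to 0.171).

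Ptn, on chromosome 6 from 36714929 to 36810220, was highest in E16.5 males. It measured 371, 399 and 369.7 CPM in E14.5 females, 413, 418 and 396 CPM among E14.5 males, 423, 427 and 426 CPM in E16.5 females and 700.1, 553 and 614 CPM in E16.5 males. All 3 E16.5 male libraries lay above the other 9, although they differed among themselves more than the rest. The sex difference at E16.5 was -0.55 on the log2 scale (SE 0.0750, edgeR adjusted p 4.68e-05), a 1.46-fold difference, against -0.11 at E14.5, with a 95% interval from -0.27 to 0.05 (adjusted p 0.495). The interaction was -0.44 (SE 0.106, adjusted p 0.0128). Ptn rose with age in males by 0.61 (SE 0.0750, adjusted p 2.13e-05). In females the change was 0.16 with a 95% interval from 0.00 to 0.32 (adjusted p 0.0979), and it passed the threshold with the 6 female libraries alone (adjusted p 0.0114) and without E16.5 male replicate 1 (0.0327).

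Mdk, on chromosome 2 from 91929805 to 91932297, varied little. It measured 472, 448 and 483 CPM in E14.5 females, 436, 519 and 535 CPM among E14.5 males, 533, 571 and 509 CPM in E16.5 females and 476, 437 and 381 CPM in E16.5 males. Neighbouring groups overlapped all along the order of levels, while the E16.5 sexes were apart from each other, as were the female ages. The sex difference at E16.5 was 1.25-fold (log2 fold change 0.32, SE 0.0891, edgeR adjusted p 0.0146) and was lost without E16.5 female replicate 2 (adjusted p 0.0857) or E16.5 male replicate 3 (0.0890). The interaction was 0.40 with a 95% interval from 0.14 to 0.67 (adjusted p 0.0548); it passed the threshold with a replicate block (0.0166), with DESeq2 (0.0308), without the low-count filter (0.0290) and without E14.5 male replicate 1 (0.0105) or E16.5 male replicate 1 (0.0129). At E14.5 the sex difference was -0.09 with a 95% interval from -0.28 to 0.10. With age the change was 0.20 in females, with a 95% interval from 0.01 to 0.39 (adjusted p 0.0855), and -0.20 in males, with an interval from -0.39 to -0.01 (adjusted p 0.116). The former passed the threshold with the 6 female libraries alone (0.00843), without the low-count filter (0.0456) and without E14.5 male replicate 1 (0.0459), and the latter without E14.5 male replicate 1 (0.0249) or E16.5 male replicate 1 (0.0357). The related ligands thus differed between the sexes at E16.5 in opposite directions, Ptn higher in males and Mdk in females.

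Of 8 listed receptors and binding partners of pleiotrophin and midkine, 6 were tested. Sdc3, a syndecan that carries the heparan sulphate chains which bind pleiotrophin, measured 217 ± 8.52 and 233 ± 7.09 CPM in E14.5 females and males and 171 ± 12.4 and 291 ± 13.3 CPM in E16.5 females and males (SD, n = 3). Its log2 fold change was -0.77 at E16.5 (edgeR adjusted p 2.88e-07) and its interaction -0.67 (adjusted p 0.000181), so that Sdc3 and Ptn were both higher in E16.5 males. Sdc3 fell with age in females by 0.34 (adjusted p 0.000669) and rose in males by 0.32 (adjusted p 0.00167). Sdc1 rose by 0.41 in females and 0.31 in males, and Sdc4 rose by 0.51 in males (adjusted p 0.00223). The change of 0.34 of Sdc4 in females (adjusted p 0.0197) was lost without E14.5 female replicates 1 or 2 or E16.5 female replicates 2 or 3 (0.0554 to 0.104). Ptprz1, a receptor phosphatase for both ligands, stood at 1.54 to 2.68 CPM in the fetal groups. Its change of -0.64 with age in males (adjusted p 0.0390) was lost with only the 6 male libraries in the fit (0.119) and without 9 of the 12 libraries one at a time (0.0514 to 0.181), the exceptions being E14.5 male replicate 2, E16.5 female replicate 3 and male replicate 1. Alk stood at no more than 0.195 CPM.

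Vegfa, on chromosome 17 from 46016993 to 46032369, fell with age in both sexes and was higher in females at both ages. It measured 300.1, 313 and 312 CPM in E14.5 females, 198, 246 and 219 CPM among E14.5 males, 159.8, 179 and 147 CPM in E16.5 females and 126, 142 and 124 CPM in E16.5 males. The 4 groups did not overlap at any step of their order. The fall was 1.90-fold in females (log2 fold change -0.93, SE 0.0866, edgeR adjusted p 7.40e-07) and 1.69-fold in males (-0.76, SE 0.0864, adjusted p 9.08e-06). The sex difference was 0.48 at E14.5 (SE 0.0860, adjusted p 0.00309) and 0.31 at E16.5 (SE 0.0861, adjusted p 0.0135), and the interaction was -0.17 with a 95% interval from -0.43 to 0.09 (adjusted p 0.448). The E16.5 difference was lost without E16.5 female replicate 2 (adjusted p 0.103) or E16.5 male replicate 3 (0.0663). The summed endothelial markers had the same order of groups as Vegfa, from 68.8 to 82.0 CPM in E14.5 females through 52.3 to 56.9 in E14.5 males and 40.0 to 49.9 in E16.5 females to 36.1 to 41.6 in E16.5 males. Most of each sum was Emcn alone, with means of 64.1, 47.0, 37.1 and 27.8 CPM in these groups in turn. Kdr, the VEGFA receptor of vessels, had another order, with 44.8, 55.1, 30.1 and 47.8 CPM. The 10 hypoxia response markers had another order, with 509 to 521 CPM in E14.5 females and 623 to 860 CPM in E16.5 males. The part of either marker list in the Vegfa levels was not tested.

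The 250 bases upstream of the Vegfa start in RefSeq, on the minus strand of GRCm38.p6, are shown because they lie outside exons and the listed accessible region at this start covers them. Windows of Hgf, Met and Kitl were covered in full too, but they touch exons and are not shown. Capitals mark the GC box GGGCGG.
Vegfa chr17:46032378-46032627: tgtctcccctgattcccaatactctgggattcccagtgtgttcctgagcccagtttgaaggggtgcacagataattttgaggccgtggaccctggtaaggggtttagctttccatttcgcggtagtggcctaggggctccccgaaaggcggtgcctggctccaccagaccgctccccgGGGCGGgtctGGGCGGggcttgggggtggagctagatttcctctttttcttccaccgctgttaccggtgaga
This window held GGGCGG 2 times and none of GACCACCCA, AGAACA or ACGTG on either strand. Of 32851 such windows of all genes, 32.7% held a GC box, 16.6% the hypoxia core, 16.1% the steroid half-site and 0.225% the GLI site.

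Among 9 listed VEGF receptors, coreceptors and relatives, 2 were higher in females and 3 in males at E16.5, against 13.2% and 14.1% of all genes. Nrp2 and Nrp1, the neuropilin coreceptors that also bind semaphorins, were higher in females, with log2 fold changes of 0.71 (edgeR adjusted p 2.65e-05) and 0.44 (adjusted p 0.000415). Kdr, the main VEGFA receptor, went the other way, with 30.1 ± 4.64 CPM in females against 47.8 ± 5.74 CPM in males (SD, n = 3; log2 fold change -0.67, adjusted p 0.000397). Pgf, a VEGF relative, was higher in males at E14.5 (-0.84, adjusted p 0.000121) and at E16.5 (-0.41, adjusted p 0.00582). Nrp1 had an interaction of 0.55 (adjusted p 0.00328); that of Nrp2, 0.44 (adjusted p 0.0433), was lost with RLE factors (0.0550) and without 9 of the 12 libraries one at a time (0.0516 to 0.128), the exceptions being E14.5 female replicate 1, E16.5 female replicate 3 and male replicate 2. With age Nrp2 rose by 0.88 in females (adjusted p 2.67e-06) and 0.44 in males (adjusted p 0.0024), Nrp1 rose by 0.67 and Vegfb by 0.31 in females, Kdr fell by 0.57 in females (adjusted p 0.0011), and Vegfd rose by 0.54 in males (adjusted p 0.00709). Flt1 stood at 0.410 to 1.34 CPM and fell in males by 1.67 (adjusted p 0.00786).

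Over all 6 routes, 39 of 42 listed genes were tested in the fetal table. None was higher in females and 4 were higher in males at E14.5, where 6.28% of all genes differed, and 7 were higher in each sex at E16.5, where 27.3% did. With age 10 rose and 8 fell in females (39.6% of all genes changed), and 10 rose and 6 fell in males (23.3%). Their median log2 fold change was 0.04 at E14.5 and 0.09 at E16.5 between the sexes, and 0.16 in females and -0.01 in males with age.

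In the uterus, Gfra1, Kitl, Ptn and Gdnf were lower in Amhr2+ than in Gli1+ cells and Vegfa was higher, 5 of the 9 genes against 23.9% of all tested genes, of which 10.1% were higher and 13.7% lower in Amhr2+ cells. The populations did not overlap in 6 of the 9 genes, against 44.4% of all genes. Gfra1 measured 1.17, 1.73 and 1.32 CPM in Amhr2+ cells and 3.87, 5.54 and 3.68 CPM in Gli1+ cells, a 3.10-fold difference with no overlap (log2 fold change of Amhr2+ over Gli1+ -1.63, SE 0.238, edgeR adjusted p 0.00204). Ptn measured 187, 166 and 232 CPM in Amhr2+ and 292, 327 and 327 CPM in Gli1+ cells (-0.69, SE 0.117, adjusted p 0.00443). Kitl measured 23.4, 21.8 and 26.6 CPM in Amhr2+ and 36.9, 32.2 and 41.6 CPM in Gli1+ cells (-0.63, SE 0.112, adjusted p 0.00543). These 3 genes and Vegfa kept their calls in every fit that left out a library. Vegfa measured 338, 353 and 318 CPM in Amhr2+ and 252, 261 and 281 CPM in Gli1+ cells, again without overlap (0.35, SE 0.0681, adjusted p 0.00824).

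Gdnf measured 4.20, 4.61 and 4.95 CPM in Amhr2+ and 6.46, 6.22 and 6.66 CPM in Gli1+ cells (-0.49, SE 0.132, edgeR adjusted p 0.0286). The groups did not overlap, but the call was lost with library size as the only scaling (adjusted p 0.0510), without the low-count filter (0.0531) and without Amhr2+ replicates 1 (0.146) or 2 (0.0839) or Gli1+ replicates 1 (0.0745) or 3 (0.0661). Nrg1 stood at 38.2, 40.9 and 38.7 CPM in Amhr2+ and 22.8, 18.3 and 36.3 CPM in Gli1+ cells, a difference of 0.61 with a 95% interval from 0.07 to 1.14 (adjusted p 0.0978). It passed the threshold without Gli1+ replicate 3, the highest Gli1+ library (0.94, adjusted p 0.00165), and with DESeq2 (0.0166). Hgf (9.88, 10.8 and 13.4 against 13.0, 12.01 and 14.1 CPM) and Met (3.32, 2.80 and 4.20 against 5.27, 4.24 and 3.89 CPM) overlapped between the populations. Their log2 fold changes were -0.20, with a 95% interval from -0.51 to 0.10, and -0.38, with an interval from -0.84 to 0.08. Mdk was at 446 ± 7.07 and 437 ± 11.4 CPM (SD, n = 3), and its interval from -0.10 to 0.16 was the narrowest of the 9.

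**Figure D4:**
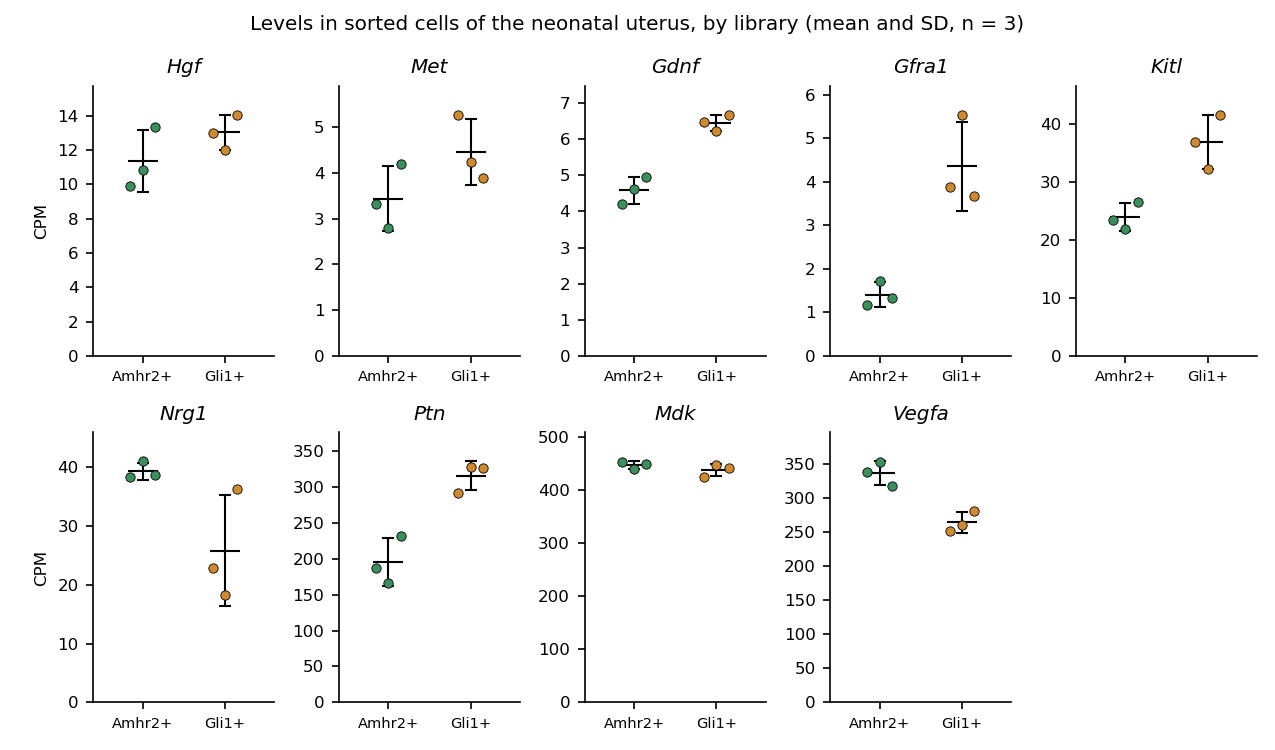
CPM of the 9 genes in each of the 6 uterine libraries (points) with the mean and SD of each sorted population (bars, n = 3), each gene on its own axis starting at 0. Gfra1, Kitl, Ptn and Gdnf lie lower in every Amhr2+ library, Vegfa lies higher, and Nrg1 is spread widely over the Gli1+ libraries (18.3 to 36.3 CPM).

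The median log2 fold change of the 9 genes in the uterus was -0.38, beside -0.00 over all genes. Other cell markers moved with the populations. Epithelial markers summed to 73.1 to 76.0 CPM in Amhr2+ and 32.8 to 45.1 CPM in Gli1+ cells, endothelial markers to 6.71 to 11.3 and 15.6 to 17.5 CPM, smooth muscle markers to 1122 to 1769 and 2121 to 2340 CPM, and mesenchyme markers to 26667 to 28515 and 54933 to 61873 CPM. Their part in these differences was not tested. With library size as the only scaling, 2849 genes were higher and 1640 lower in Amhr2+ cells, against 1642 and 2224 with the scaling used here, and the log2 fold changes of the 9 genes kept their signs. Without Amhr2+ replicate 1, 1949 genes were called, and 2521 without Gli1+ replicate 1.

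Of 35 listed genes tested in the uterus, 4 were higher (10.1% of all genes) and 8 lower (13.7%) in Amhr2+ cells, with a median of -0.04. In the VEGF route 5 of 9 genes were lower in Amhr2+ cells (13.7% of all genes) and none higher. The 8 endothelial markers summed to 6.71 to 11.3 CPM in Amhr2+ and 15.6 to 17.5 CPM in Gli1+ cells, and their part in these differences was not tested. Vegfd, a ligand that acts on lymphatic vessels, measured 7.47, 7.15 and 5.53 CPM in Amhr2+ and 47.6, 64.5 and 53.6 CPM in Gli1+ cells (log2 fold change -3.03, SE 0.150, edgeR adjusted p 1.02e-05). Nrp2 measured 11.43, 11.003 and 9.49 CPM against 82.7, 75.7 and 66.0 CPM (-2.81, SE 0.109, adjusted p 3.8e-06). Nrp1 (-0.78, adjusted p 0.00469) and Pgf (-0.64, adjusted p 0.0161, or 0.0557 without Amhr2+ replicate 1) were also lower, and Flt4 had -0.55 (adjusted p 0.0320), lost with library size as the only scaling (0.0536) and without Amhr2+ replicates 1 or 3 or Gli1+ replicates 1 or 2 (0.0562 to 0.0820). Vegfa thus went against the other called genes of its route.

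Of the other receptors, Ptprz1 was higher in Amhr2+ cells, at 28.4, 33.2 and 22.2 against 13.7, 13.8 and 13.2 CPM (log2 fold change 1.04, SE 0.139, edgeR adjusted p 0.0013), while its ligand gene Ptn was lower there. Egfr (-0.63, adjusted p 0.00176), Erbb2 (-0.53, adjusted p 0.000543) and Gfra2 (-0.69, adjusted p 0.00437) were lower. Plau had 0.90 (adjusted p 0.0166), lost with a replicate block (0.0906), without the low-count filter (0.0833) and without Amhr2+ replicates 1 or 2 or Gli1+ replicate 1 (0.0504 to 0.0583). Ncam1 had 0.24 (adjusted p 0.0266), lost without Amhr2+ or Gli1+ replicates 1 or 3 (0.0600 to 0.121). Ncl, nucleolin, which binds both ligands, had 0.27 (adjusted p 0.0441), lost without Amhr2+ replicates 1 or 3 or Gli1+ replicates 1 or 2 (0.0870 to 0.141). Kit measured 22.2 ± 6.43 and 29.0 ± 3.91 CPM (SD, n = 3), a log2 fold change of -0.38 with a 95% interval from -0.88 to 0.11 (adjusted p 0.234). Ret (0.370 and 0.211 CPM), Erbb3 (2.13 and 1.47), Kdr (19.4 and 24.5) and Flt1 (1.41 and 0.984 CPM) did not pass the threshold. Erbb4 (0.0871 and 0.0811 CPM) was too low to be tested.

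All 9 genes had a listed accessible region within 1000 bp of an annotated start site, as did 89.1% of the 14577 tested fetal genes with a start site in GENCODE vM21. With the start base itself as the limit it was again 9 of 9, against 81.3%. Within the gene the list held 21 regions for Nrg1, by far the longest of the 9 genes, 8 for Gfra1, 5 for Ptn, 4 each for Kitl and Vegfa, 3 each for Met and Gdnf, 2 for Mdk and 1 for Hgf. With no values per sample, the list cannot be set beside the sex or age differences.

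The genes most like each of the 9 over the 12 fetal libraries were taken by Pearson's r of log2 CPM, among 10456 other genes (10457 for Gfra1) with at least 10 CPM in a group. The libraries share 4 groups, so these values are descriptions. Gdnf was closest to Cxxc4 (r 0.984), Lmcd1 (0.979) and Vwa1 (0.966). Lmcd1 measured 9.58 ± 0.438 CPM in E16.5 females and 34.6 ± 5.81 CPM in E16.5 males (SD, n = 3). Gfra1 was closest to Crabp1 (0.968), which encodes a retinoic acid binding protein, Negr1 (0.960) and Angpt1 (0.959), which encodes angiopoietin; Crabp1 stood at 129.6 ± 10.96 CPM in E16.5 females and 36.1 ± 1.97 CPM in E16.5 males. Hgf was closest to Epha7 (0.969), Phlpp1 (0.958) and Slitrk2 (0.955), and Met to Meaf6 (0.977), Mcm8 (0.975) and Lhfp (0.975). Kitl was closest to Cd44 (0.982), Prlr (0.977) and Gpd1l (0.970), and Nrg1 to Sfmbt2 (0.967), Arhgap6 (0.921) and Stk39 (0.912). Ptn was closest to Cpe (0.977), C1qtnf2 (0.973) and Igfbp2 (0.966), Mdk to Lypla2 (0.959), Fsd1 (0.943) and Ncln (0.924), and Vegfa to Lrp5 (0.971), Scmh1 (0.967) and Atxn7l3 (0.966).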

How the data were processed

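RNA-seq values are raw counts of reads over genes, deposited by the authors as a fetal and a uterine table. By the protocols in the labels, the fetal libraries used a non-stranded kit and 250 ng of RNA and the uterine libraries a stranded kit. The submitters' processing notes name STAR 2.5, featureCounts, Subread 1.5.0-p1, Bowtie 1.2, SAMtools 1.3.1, Picard, bedtools 2.24.0, MACS2 2.1.1 and mm10, without roles; the strand setting of the counting is not given in the sources used here, so the overlapping genes of Hgf, Gfra1 and Nrg1 are uncertain. The accessible regions are a deposited list of positions only, with no score.

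Each table was fitted alone with edgeR 4.0.16 in R 4.3.3: filterByExpr by group, TMM scaling, robust quasi-likelihood test of group means over all libraries of the table, Benjamini-Hochberg adjustment over all 17858 fetal or 16195 uterine genes, threshold 0.05. CPM use the TMM-scaled library size, and log2 CPM a prior count of 2. The fit was tested on simulated data. Interval limits are 95%. The alternatives were DESeq2 1.42.0, RLE factors, library size only, no filter, the libraries compared alone, a replicate block, and each library left out in turn. The 9 genes and the lists were chosen with earlier results of these data known. All 9 genes are named in each contrast. From the list of 42 receptors, activators, inhibitors and related ligands, genes are named that passed the threshold with at least 5 CPM in the higher group, with the direct receptors in any case; 3 genes most like each member are named. Marker lists used only as context (immune, germ cell, gonad, erythroid and dissociation response) are given in the limits.

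Libraries with the same replicate number deviated together from their group means between the sexes at E16.5 (r 0.284, 0.115 and 0.396, all above 0.1, the limit for reading the numbers as pairs), although no label says that a number marks a litter. The values given are those of the fit without a block, and the block changed no call on the 9 genes in that contrast. At E14.5 r was 0.0725, 0.0504 and 0.0508, while r between different numbers was negative throughout, from -0.0434 to -0.0073. Deviations from a group mean cancel out within the group, so r between different numbers tends to be negative where same-number r is positive. In the uterus r between the same numbers was 0.0018, 0.221 and 0.243. No pair of libraries agreed within counting noise. Sequences are those of RefSeq GRCm38.p6, which had promoter entries for 7 of the 9 genes (not Mdk and Nrg1).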

Additional observations from a re-analysis of the deposited data

Results flagged for a closer look

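For 5 of the 9 genes the sex difference at E16.5 was not the sex difference at E14.5, by a test of the change itself (edgeR's interaction term over the 12 fetal libraries). Of all tested genes, 10.02% passed this test. The log2 change of the female to male ratio was 2.30 for Gfra1 (adjusted p 6.76e-05), -1.60 for Gdnf (0.00201), -1.07 for Met (0.00651), 0.70 for Hgf (0.0160) and -0.44 for Ptn (0.0128). All 5 kept their sign and stayed past the threshold in each of the alternatives run. For Gfra1, Gdnf, Hgf and Ptn the sexes overlapped at E14.5 and were apart at E16.5; for Met the reverse held. Summed smooth muscle markers stood at 302 to 326 CPM in E14.5 females, 607 to 888 CPM in E14.5 males, 465 to 567 CPM in E16.5 females and 1716 to 2893 CPM in E16.5 males, and their part in these 5 changes was not tested.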

How the results depend on the processing

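Of 54 tests (9 genes, 6 contrasts), 32 passed the threshold, and 24 of these did so in every alternative run; 13 of the other 22 never passed. Signs that turned were all of genes that were not called. For the E14.5 sex difference in Gfra1 (-0.01) they were 0.0021 with RLE factors, 0.0048 with only the 6 compared libraries and 0.0047 with DESeq2, and -0.12 to 0.0595 with 1 library left out; with 1 library left out the range was -0.14 to 0.44 for Gdnf and -0.16 to 0.0648 for Kitl at E14.5, and -0.0326 to 0.36 for the age change of Nrg1 in males. With 1 library left out, the number of genes called was 553 to 1678 for sex at E14.5 (1121 with all libraries; in turn 578, 660 and 653 when E14.5 female replicate 1, 2 or 3 was left out, 686 for male replicate 2 and 553 for male replicate 3), 1335 to 2687 for the interaction (1790; the highest without E16.5 male replicate 1) and 1949 to 3521 in the uterus (3866; 1949 without Amhr2+ replicate 1 and 2521 without Gli1+ replicate 1). The replicate block changed the call of Mdk (interaction) and Hgf (age in males) among the 9 genes, and it moved none of the 6 counts of called genes by over 1.5 times. It raised the counts for sex, for the interaction and in the uterus (at E14.5 from 1121 to 1581, in the uterus from 3866 to 4725) and lowered those for age. All same-number r passed 0.1 only between the sexes at E16.5, but the values at E14.5 and in the uterus leave pairs possible there. The cause of these changes was not tested. Depth limited Ret, Erbb4 and Alk, near the limit of 3 counts. Summed markers of other cells ranged over the 18 libraries from 14.6 to 86.3 CPM (immune), 1.15 to 7.37 CPM (germ cells), 52.7 to 137.7 CPM (gonad), 1.67 to 899.8 CPM (erythroid, the highest in E14.5 female replicate 3) and 1261 to 18680 CPM (dissociation response).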
